A study of Homo sapiens with 8 samples.

Results

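The S100 proteins are small calcium-binding proteins, and 10 of their genes were followed here through a breast cancer cell line at low and normal oxygen. The members were chosen by symbol, as S100A2, S100A3, S100A4, S100A6, S100A8, S100A9, S100A10, S100A11, S100A14 and S100A16, and all 10 were found among the 19583 genes of the deposited table. RNA was sequenced from MDA-MB-231, a human line of basal-like breast cancer cells with mesenchymal features. Cells labelled shCHD4 carried a short hairpin RNA named for CHD4, the ATPase of the NuRD chromatin remodelling complex, and cells labelled shSC carried a scrambled one as control; the labels name neither the hairpin sequence nor a clone. Under each label, cells were held at 1% or 20% O2 for 24 hours in serum-containing medium, which gave 4 groups of 2 libraries: shCHD4 at 1% O2, shCHD4 at 20% O2, shSC at 1% O2 and shSC at 20% O2. All groups are 1 cell line, and the labels do not say whether both libraries of a group are from different cultures. A p-value therefore sets a difference against the spread between libraries of a group, pooled in part over genes, and that spread may be technical. The study addressed how CHD4 bears on the activity of the hypoxia-inducible factors (HIFs).

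An S100 protein folds around a pair of EF-hand loops and works mostly as a dimer. Binding of calcium opens a hydrophobic face, which then docks to partners such as annexins, myosin or tropomyosin and so links calcium signals to the cytoskeleton and to membranes. Several members are also released from cells and act on surface receptors, among them RAGE, TLR4 and basigin. In breast cancer the family is best known for S100A4, described as a driver of metastasis, and for S100A10, which helps to gather plasminogen on the cell surface. Except for a few members elsewhere, the human genes lie together on chromosome 1, as all 10 members here do.

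Values are given as normalised read counts, which are whole reads scaled by a single factor in each library, with no division by length. The libraries held 24947627 to 31903585 reads, and 16418 to 16861 genes had a read in a library. CHD4 itself was at 299.1 and 286.9 in the shCHD4 libraries at 1% O2 and 293.4 and 304.6 in those at 20% O2, against 279.7 and 278.2 in the shSC libraries at 1% O2 and 298.9 and 298.2 at 20% O2. CHD4 RNA was thus not lower under the shCHD4 label (limma log2 difference at 1% O2 0.071 with adjusted p = 0.129, at 20% O2 0.0018 with adjusted p = 0.968), and each difference between labels is given below as one between libraries with these labels. Of the markers listed for MDA-MB-231, all 6 were present, led by VIM with a mean between 3497 and 6819 per group. Of 6 genes listed as low or absent in the line, 3 were near 0: the estrogen receptor ESR1 had 2 to 5 reads per group, the progesterone receptor PGR 0 to 4 and E-cadherin CDH1 7 to 12. The other 3 were measured, with group means of 36.8 to 53.7 for ERBB2, the gene of HER2, 8.59 to 14.5 for GATA3 and 4.5 to 6.95 for EPCAM, and the 6 summed to 52.2 to 68.7 per library.

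The members spanned a wide range of levels. Set per kilobase of their longest annotated transcript and averaged over the 8 libraries, S100A6 was at 1108 normalised counts per kb, above 99.9% of all tested genes with a length. S100A11 was at 663 and S100A10 at 297 per kb, and with the median transcript length in place of the longest these became 684 and 685, so their order rests on the length used. S100A16 followed at 168.6 and S100A4 at 62.4 per kb, while S100A2 at 10.1 and S100A3 at 5.74 per kb were above 51.9% and 36.6% of them, or 36.8% and 21.4% with the median length. S100A14, S100A9 and S100A8 were at or near 0 and did not reach the mean of 1 that a gene needed to be tested. The 7 tested members were at 4.16 or more in every library, so none of them passed that filter through 1 group alone.

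**Figure D1:**
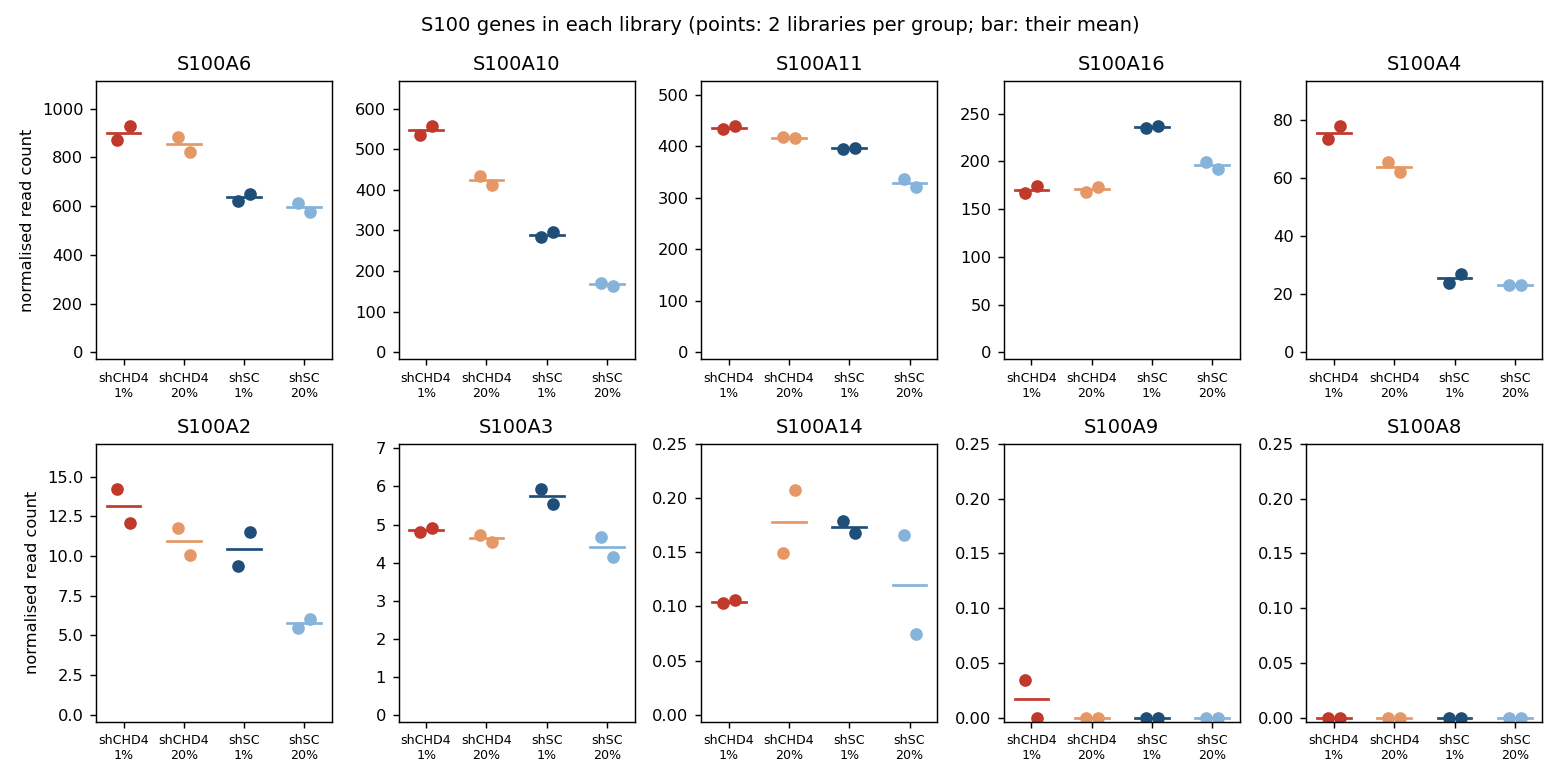
Normalised read count of each member on a linear axis of its own, with shCHD4 at 1% and 20% O2 left of shSC at 1% and 20% O2; each point is 1 library and each line the mean of its group. S100A6, S100A10 and S100A4 sit higher under the shCHD4 label at both O2 levels, S100A16 sits lower, and S100A14, S100A9 and S100A8 stay below 0.21.

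Between the labels, most tested members differed, and 5 of the 6 that passed were higher under shCHD4. At 1% O2, S100A2, S100A4, S100A6, S100A10 and S100A11 were higher and S100A16 lower by limma with Benjamini-Hochberg adjustment at 0.05, 6 of 7 tested, beside 77.4% of all 12645 genes tested (38.2% higher and 39.2% lower). At 20% O2 the counts were again 5 higher and 1 lower, beside 75.6% of all genes (37% higher and 38.6% lower). A share of 6 in 7 is near these backgrounds, so the number of members called is no result about the family. The median log2 difference of the 7 members was 0.32 at 1% O2 and 0.52 at 20% O2, against -0.0067 and -0.0091 over all genes. The members were chosen with earlier results of these data known, so these medians are a description only. In RNA of whole cultures, fewer cells that make a transcript and less of it per cell cannot be told apart. The label comparisons and the O2 comparisons share libraries with each other and are not independent.

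S100A4 differed most between the labels. Its protein, also called metastasin, binds the heavy chain of non-muscle myosin IIA and takes the filaments apart, which is tied to cell motility. It was at 73.5 and 78.0 in the shCHD4 libraries at 1% O2 and 65.6 and 62.1 in those at 20% O2, against 24.0 and 27.2 in shSC at 1% O2 and 23.3 and 23.1 in shSC at 20% O2. Every shCHD4 library was above 62 and every shSC library below 28, so the labels did not overlap at either O2 level. The group means were 75.7 ± 3.21 and 63.8 ± 2.49 under shCHD4 and 25.6 ± 2.21 and 23.2 ± 0.083 under shSC (SD, n = 2 each), from 4345, 3553, 1480 and 1185 reads. S100A4 rose 2.93-fold under the shCHD4 label at 1% O2 (log2 1.55, 95% interval 1.41 to 1.69, limma adjusted p = 1.58e-13) and 2.71-fold at 20% O2 (log2 1.44, 95% interval 1.30 to 1.58, adjusted p = 4.81e-13). These differences exceeded those of 98.2% and 97.9% of all genes tested. In RefSeq S100A4 overlaps S100A5 and the gene LOC101928034, and no source used here states whether counting used strand, so reads from the shared stretches cannot be told apart.

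S100A10 had the next largest difference and was the only member that passed all 5 comparisons by limma. Its protein, p11, has lost the ability to bind calcium and sits in a tetramer with annexin A2, where it binds plasminogen and carries channels to the membrane. It was at 536.2 and 556.7 in the shCHD4 libraries at 1% O2 and 434.9 and 411.9 in those at 20% O2, against 283.6 and 296.2 in shSC at 1% O2 and 171.3 and 164.3 in shSC at 20% O2. The 4 groups stood in 4 separate steps, with shSC at 20% O2 lowest and shCHD4 at 1% O2 highest. The means were 546.4 ± 14.5 and 423.4 ± 16.3 under shCHD4 and 289.9 ± 8.90 and 167.8 ± 4.99 under shSC (SD, n = 2 each), from 31356, 23562, 16749 and 8565 reads. Under the shCHD4 label S100A10 rose 1.88-fold at 1% O2 (log2 0.91, 95% interval 0.82 to 1.01, limma adjusted p = 1.41e-12) and 2.52-fold at 20% O2 (log2 1.33, 95% interval 1.24 to 1.43, adjusted p = 5.59e-15). RefSeq lists no gene that overlaps it.

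The starts of S100A10, S100A4 and S100A2 are shown because these are the members with the widest spread over the 4 groups, and because the study is about HIFs, whose binding sites share the letters ACGTG, or in other genes GCGTG. Each stretch is 300 bases from RefSeq on GRCh38.p14, with 250 bases before the start of transcription and 50 after it, 5′ to 3′ on the strand of the gene, which is the minus strand for all 3. Both cores were searched on both strands and are in capitals, so that a core on the opposite strand shows as its complement, such as CACGT. The palindrome CACGTG would count as ACGTG on both strands. S100A10 is read from chr1:151993810-151994109, S100A4 from chr1:153545757-153546056 and the first start of S100A2 from chr1:153565795-153566094.
S100A10: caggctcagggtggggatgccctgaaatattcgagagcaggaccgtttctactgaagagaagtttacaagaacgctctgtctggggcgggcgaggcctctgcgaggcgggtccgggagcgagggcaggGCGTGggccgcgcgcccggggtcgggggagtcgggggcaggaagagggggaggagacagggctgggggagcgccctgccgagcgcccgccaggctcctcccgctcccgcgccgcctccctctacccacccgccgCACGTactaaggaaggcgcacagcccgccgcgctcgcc
S100A4: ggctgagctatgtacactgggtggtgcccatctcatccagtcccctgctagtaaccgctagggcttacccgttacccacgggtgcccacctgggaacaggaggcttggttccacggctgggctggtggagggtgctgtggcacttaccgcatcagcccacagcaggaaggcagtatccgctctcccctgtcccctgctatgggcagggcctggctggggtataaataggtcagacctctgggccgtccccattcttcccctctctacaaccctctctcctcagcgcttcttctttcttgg
S100A2: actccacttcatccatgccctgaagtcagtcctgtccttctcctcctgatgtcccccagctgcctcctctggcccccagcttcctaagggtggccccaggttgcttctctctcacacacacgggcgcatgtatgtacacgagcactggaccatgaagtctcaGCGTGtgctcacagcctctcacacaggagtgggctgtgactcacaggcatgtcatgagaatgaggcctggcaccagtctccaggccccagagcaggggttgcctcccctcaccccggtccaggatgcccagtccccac
S100A10 held 1 GCGTG before its start, and 1 ACGTG, on the opposite strand, at bases 13 to 17 of the transcript. S100A2 held 1 GCGTG before its first start and neither core at its second, and the S100A4 window held neither core but had TATAAA, the letters of a core promoter box, at bases -31 to -26. Of the 14 starts listed for the 10 members, 2 held ACGTG and 5 held GCGTG, against 21.4% and 36.5% of 35116 promoter windows of the same length, and 4 held TATAAA against 11.5%. The starts of S100A8 lie so close that 2 of those 4 windows hold the same TATAAA. A match of letters is a description and not a bound site, and HIF binding was not measured here.

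S100A6, or calcyclin, which binds the ubiquitin ligase partner CACYBP and is made by many dividing cells, was higher under the shCHD4 label by a smaller factor. It was at 870.5 and 928.2 in the shCHD4 libraries at 1% O2 and 883.4 and 824.2 in those at 20% O2, against 621.4 and 650.0 in shSC at 1% O2 and 613.5 and 575.7 in shSC at 20% O2. The means were 899.3 ± 40.8 and 853.8 ± 41.9 under shCHD4 and 635.7 ± 20.2 and 594.6 ± 26.7 under shSC (SD, n = 2 each). The labels were apart at both O2 levels, while the 1% and 20% O2 libraries of shCHD4 overlapped. S100A6 rose 1.41-fold at 1% O2 (log2 0.50, limma adjusted p = 2.55e-08) and 1.44-fold at 20% O2 (log2 0.52, adjusted p = 1.5e-08). LOC124904423 overlaps it in RefSeq.

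S100A11, or calgizzarin, a partner of annexins A1 and A2 in membrane repair, rose under the shCHD4 label by less. It was at 433.0 and 438.5 in shCHD4 at 1% O2 and 416.8 and 415.4 in shCHD4 at 20% O2, against 394.6 and 396.5 in shSC at 1% O2 and 335.4 and 320.2 in shSC at 20% O2. Each shCHD4 library was above each shSC library. The means were 435.7 ± 3.85 and 416.1 ± 1.06 under shCHD4 at 1% and 20% O2 and 395.6 ± 1.34 and 327.8 ± 10.8 under shSC (SD, n = 2 each). The log2 difference was 0.14 at 1% O2 (95% interval 0.05 to 0.22, limma adjusted p = 0.00451), and that at 20% O2 was larger, at 0.34 (95% interval 0.26 to 0.43, adjusted p = 3.73e-07). With quantile normalization the value at 1% O2 was 0.29, more than 1.5 times as large.

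S100A2, which in normal breast and squamous epithelium is a target of p53 family factors and is often lost in breast tumours, was a low gene here. It was at 14.2 and 12.1 in shCHD4 at 1% O2 and 11.8 and 10.1 in shCHD4 at 20% O2, against 9.40 and 11.5 in shSC at 1% O2 and 5.46 and 6.05 in shSC at 20% O2. The shSC libraries at 20% O2 stood apart below all others, and those of shSC at 1% O2 lay within the range of shCHD4 at 20% O2 or just below it. Its means were 13.1 ± 1.53 and 10.9 ± 1.21 under shCHD4 at 1% and 20% O2 and 10.5 ± 1.5 and 5.76 ± 0.418 under shSC (SD, n = 2 each). From 755, 607, 606 and 295 reads per group, S100A2 rose under the shCHD4 label at 20% O2 (log2 0.87, 95% interval 0.63 to 1.11, limma adjusted p = 1.58e-06) and by less at 1% O2 (log2 0.32, 95% interval 0.08 to 0.56, adjusted p = 0.0173). The call at 1% O2 was lost with replicate 1 of shCHD4 at 1% O2 left out (log2 0.20, adjusted p = 0.198), with replicate 1 of shSC at 1% O2 left out (log2 0.18, adjusted p = 0.232) and with no filter on low genes (adjusted p = 0.0724), and over all alternatives the adjusted p ran from 0.00509 to 0.232.

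S100A16, a widely made member with few assigned partners, was the 1 tested member that fell under the shCHD4 label. It was at 167.1 and 173.8 in shCHD4 at 1% O2 and 168.2 and 173.3 in shCHD4 at 20% O2, against 234.5 and 236.8 in shSC at 1% O2 and 199.7 and 191.9 in shSC at 20% O2. The 4 shCHD4 libraries lay within 167.1 to 173.8, below every shSC library. Its means were 170.4 ± 4.78 and 170.8 ± 3.61 under shCHD4 at 1% and 20% O2 and 235.7 ± 1.62 and 195.8 ± 5.52 under shSC (SD, n = 2 each). S100A16 was 1.38-fold lower at 1% O2 (log2 -0.47, 95% interval -0.56 to -0.37, limma adjusted p = 1.57e-08) and 1.15-fold lower at 20% O2 (log2 -0.20, 95% interval -0.29 to -0.10, adjusted p = 0.000515). With quantile normalization the difference at 20% O2 was -0.10.

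S100A3, a cysteine-rich member best known from the hair cuticle, did not pass between labels. It was at 4.81 and 4.91 in shCHD4 at 1% O2 and 4.72 and 4.55 in shCHD4 at 20% O2, against 5.93 and 5.54 in shSC at 1% O2 and 4.68 and 4.16 in shSC at 20% O2. The log2 difference was -0.22 at 1% O2 (95% interval -0.45 to 0.02, limma adjusted p = 0.0831), and at 20% O2 it was 0.06 (adjusted p = 0.613). At 1% O2 it passed with no variance trend (adjusted p = 0.0167), the lowest of a range that reached 0.269. It rests on 225 to 331 reads per group, and LOC101928034 overlaps it in RefSeq.

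**Figure D2:**
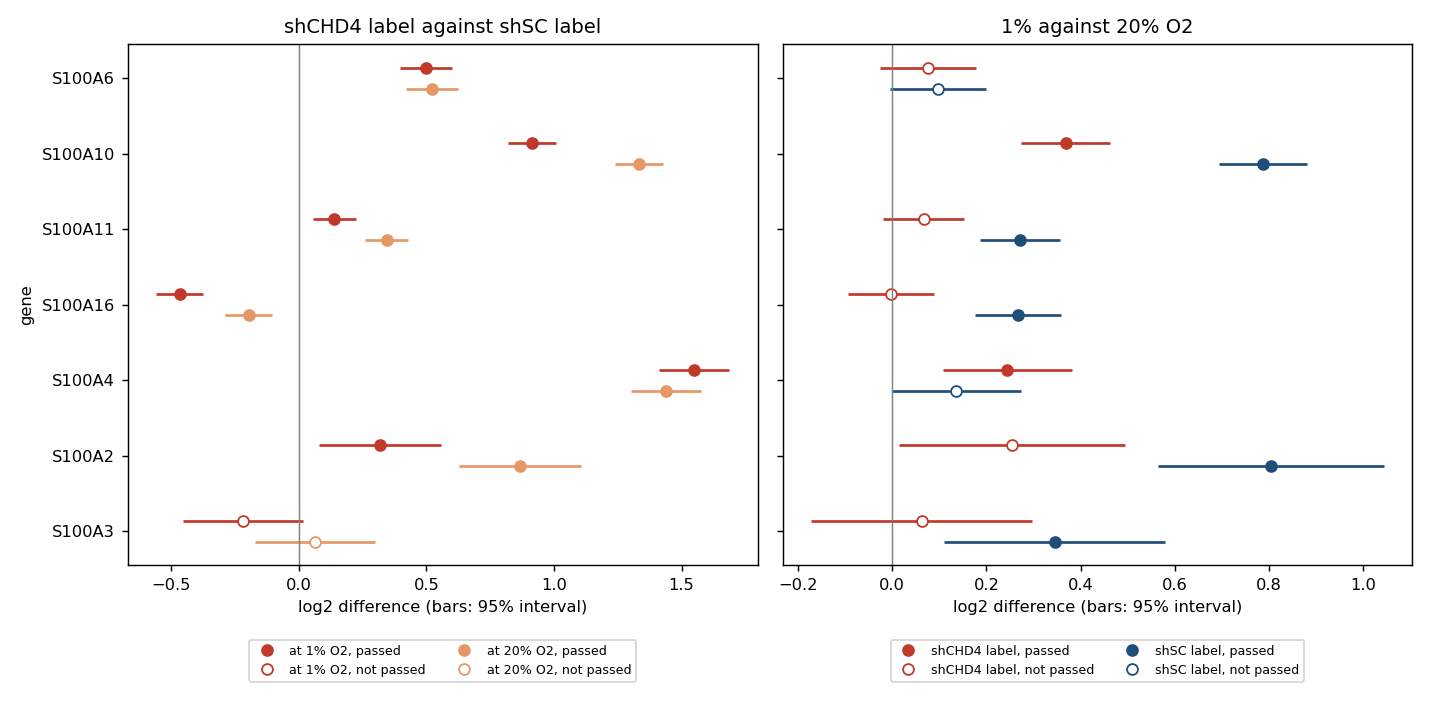
Log2 differences of the 7 tested members, shCHD4 label against shSC label at 1% and at 20% O2 (left) and 1% against 20% O2 under each label (right); points are limma estimates, bars 95% intervals, and filled points passed at an adjusted p under 0.05. S100A4 and S100A10 lie farthest right on the left panel and S100A16 left of 0, and on the right panel the shSC points of S100A10, S100A16 and S100A2 lie right of their shCHD4 points.

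S100A14, an epithelial member, had 3 and 3 reads in the shCHD4 libraries at 1% O2 and 4 and 6 at 20% O2, against 5 and 5 in shSC at 1% O2 and 4 and 2 at 20% O2. At 0.0743 to 0.207 normalised counts it was too low to compare. S100A9 had 1 read in all, in shCHD4 at 1% O2, and S100A8 had 0 reads in all 8 libraries, which allows a level of up to 0.101 to 0.124 normalised counts per library (3 reads, counting error only). S100A8 and S100A9 pair as calprotectin, the abundant protein of neutrophils and monocytes, and with both at the floor their ratio could not be formed. Myeloid markers were low but not at 0. The 6 of 8 listed genes that were measured summed to 3.97 to 5.25 normalised counts per library, with CSF1R at 100 to 137 reads per group, CD14 at 51 to 79, the leukocyte gene PTPRC at 9 to 34 and the integrin ITGAM at 1 to 9. CSF1R and CD14 reached the filter. CSF1R was lower under shCHD4 at 1% O2 (limma adjusted p = 0.0336) and did not pass at 20% O2 (adjusted p = 0.0745). CD14 was lower at 20% O2 (adjusted p = 0.0156) and did not pass at 1% O2 (adjusted p = 0.948). Over all genes, 77.4% passed at 1% O2 and 75.6% at 20% O2. The means of PTPRC and ITGAM were higher under shCHD4 at both O2 levels, but both genes were below the filter and not tested. No direction is read from this list.

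Low oxygen went with higher levels of 5 members under shSC and of 2 under shCHD4, and no tested member fell in either comparison. At 1% against 20% O2 under the shSC label, S100A2, S100A3, S100A10, S100A11 and S100A16 rose, 5 of 7 tested, beside 35.2% of all genes (17.4% higher and 17.9% lower). Under the shCHD4 label S100A4 and S100A10 rose, 2 of 7, beside 23% of all genes (12.3% higher and 10.7% lower). The median log2 difference of the 7 members was 0.27 under shSC and 0.08 under shCHD4, against -0.011 and -0.0037 over all genes. As between the labels, these counts and medians of chosen genes are a description only.

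For S100A10, 1% O2 gave a 1.29-fold higher count than 20% O2 under shCHD4 (log2 0.37, 95% interval 0.27 to 0.46, limma adjusted p = 1.1e-05) and a 1.73-fold higher count under shSC (log2 0.79, 95% interval 0.69 to 0.88, adjusted p = 2.19e-10). S100A2 was 1.75-fold higher at 1% O2 under shSC (log2 0.80, 95% interval 0.56 to 1.04, adjusted p = 3.09e-05), and under shCHD4 its log2 difference was 0.25 (95% interval 0.01 to 0.49, adjusted p = 0.115). That value moved to 0.14 without replicate 1 and 0.37 without replicate 2 of shCHD4 at 1% O2, and to 0.36 without replicate 1 and 0.15 without replicate 2 at 20% O2, and passed in none of these. S100A11 rose by a log2 difference of 0.27 under shSC (adjusted p = 5.34e-05), against 0.07 under shCHD4 (adjusted p = 0.249). The values of S100A16 were flat across O2 under shCHD4 and differed under shSC. Its log2 difference was -0.0029 under shCHD4 (95% interval -0.09 to 0.09, adjusted p = 0.97) and 0.27 under shSC (95% interval 0.18 to 0.36, adjusted p = 0.000129).

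S100A4 showed a small rise with low oxygen under the shCHD4 label that rests on single libraries. Its log2 difference was 0.24 under shCHD4 (95% interval 0.11 to 0.38, limma adjusted p = 0.012) and 0.14 under shSC (adjusted p = 0.114). The shCHD4 call was lost when replicate 2 of shCHD4 at 1% O2 was left out (adjusted p = 0.132), when replicate 2 at 20% O2 was (adjusted p = 0.0999) and with no variance trend (adjusted p = 0.0578), and its adjusted p ran from 0.00383 to 0.132 over all alternatives. With replicate 1 of shSC at 1% O2 left out, S100A4 passed under shSC as well (log2 0.22, adjusted p = 0.0317, with a range of 0.0317 to 0.64).

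S100A3 rose under shSC by a log2 difference of 0.34 (95% interval 0.11 to 0.58, limma adjusted p = 0.0226). The call was lost without replicate 1 of shSC at 1% O2 (adjusted p = 0.125), without replicate 2 at 20% O2 (adjusted p = 0.142), with DESeq2 (adjusted p = 0.141) and with no filter (adjusted p = 0.0662), over a range of 0.00872 to 0.142. S100A6 did not pass for oxygen under either label, with log2 differences of 0.08 under shCHD4 (adjusted p = 0.278) and 0.10 under shSC (adjusted p = 0.131).

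Whether the response to oxygen differed between the labels was tested by the interaction, the O2 difference under shCHD4 minus that under shSC on the log2 scale. It passed for S100A10 and S100A16, 2 of 7, both lower under shCHD4, beside 4.36% of all genes tested (2.21% higher and 2.14% lower). The value was -0.42 for S100A10 (95% interval -0.55 to -0.29, limma adjusted p = 0.000654) and -0.27 for S100A16 (95% interval -0.40 to -0.14, adjusted p = 0.0166). S100A2 had the most negative value of the members, -0.55 (95% interval -0.89 to -0.21), but with adjusted p = 0.0614 it did not pass. S100A11, at -0.20, was just outside the threshold (adjusted p = 0.0504), S100A3 was at -0.28 (adjusted p = 0.363), and S100A4 and S100A6 were at 0.11 and -0.02 (adjusted p = 0.59 and 0.906).

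These calls near the threshold move with the settings. The S100A10 call was lost with no variance trend alone (adjusted p = 0.0579, range 4.65e-07 to 0.0579). That of S100A16 was lost with no variance trend (adjusted p = 0.126), with no filter (0.0682), without replicate 1 of shCHD4 at 1% O2 (0.117) and without replicate 2 at 20% O2 (0.0761), over a range of 0.00669 to 0.126. S100A11 passed with a pseudocount of 1, a minimum mean of 5, TMM factors, DESeq2 or without replicate 1 of shSC at 20% O2, and its adjusted p ran from 0.0172 to 0.206. S100A2 passed without replicate 1 of shSC at 1% O2 (0.0403) or replicate 2 of shCHD4 at 20% O2 (0.048), over a range of 0.0403 to 0.266.

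The scale matters for S100A10, whose interaction is one of ratios. In normalised counts, 1% minus 20% O2 was 123.0 ± 15.4 under shCHD4 and 122.1 ± 7.21 under shSC (difference of means ± SE), and shCHD4 minus shSC was 256.5 at 1% O2 and 255.6 at 20% O2. On the linear scale the O2 and label differences thus added, and the fold at low oxygen was smaller under shCHD4, where the level at 20% O2 was higher. S100A16 was unlike this, with 1% minus 20% O2 at -0.335 under shCHD4 and 39.9 under shSC in normalised counts. S100A11 gave 19.6 under shCHD4 and 67.8 under shSC, S100A2 gave 2.21 and 4.71, and S100A4 gave 11.9 and 2.39.

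Summed over the 10 members, the normalised counts were 2099 and 2192 in shCHD4 at 1% O2 and 1986 and 1902 in shCHD4 at 20% O2, against 1574 and 1624 in shSC at 1% O2 and 1354 and 1285 in shSC at 20% O2. That is 0.124% to 0.22% of all counts in a library, and the 4 groups did not overlap. S100A10 made up 25.5% and 25.4% of the sum in shCHD4 at 1% O2 and 21.9% and 21.7% in shCHD4 at 20% O2, against 18.0% and 18.2% in shSC at 1% O2 and 12.7% and 12.8% in shSC at 20% O2. The share of S100A16 went the other way, at 7.93% to 9.11% in the shCHD4 libraries against 14.6% to 14.9% in the shSC libraries. S100A6 kept a share of 39.5% to 45.3% throughout. These shares are of reads and not per length, so they serve only to follow each gene across groups.

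**Figure D3:**
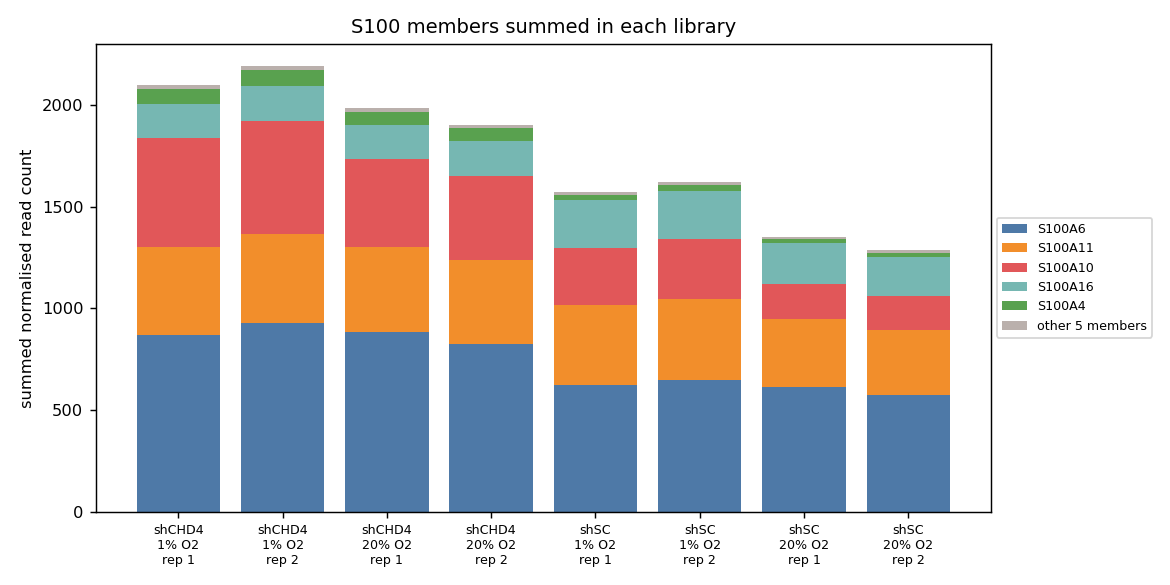
Summed normalised read count of the 10 members in each library, stacked by gene, with the 4 shCHD4 libraries left of the 4 shSC libraries and 1% left of 20% O2 within each label. The stacks run from 2192 in shCHD4 at 1% O2 down to 1285 in shSC at 20% O2, and the S100A10 band widens most.

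Of 11 other S100 genes listed, 6 were measured, and 3 of these reached the filter. All 3 rose under the shCHD4 label at both O2 levels, beside 38.2% of all genes at 1% O2 and 37% at 20% O2, and none passed for oxygen or the interaction. S100A5, a member of olfactory neurons in rodents, was at 2.40 and 2.33 in shCHD4 at 1% O2 and 2.13 and 1.83 at 20% O2, against 0.751 and 0.840 in shSC at 1% O2 and 0.662 and 0.520 at 20% O2 (log2 1.15 and 1.19 between labels). The pseudocount shrinks these log2 values, and the ratios of means were 2.98 at 1% and 3.35 at 20% O2. S100A5 reached the filter only through the shCHD4 groups, where it is high, so its place in the count supports nothing, and it overlaps S100A4, whose reads may be among its own. S100A13, which takes part in the release of FGF1 and IL-1 alpha, differed by 0.29 at 1% O2 (limma adjusted p = 0.00104), with 0.22 at 20% O2 (adjusted p = 0.00888). In RefSeq S100A13 overlaps S100A1 and CHTOP, so reads from the shared stretches cannot be told apart. S100P, a ligand of RAGE that also binds ezrin and is encoded on chromosome 4, differed by 0.33 at 1% O2 (adjusted p = 0.0312), with 0.52 at 20% O2 (adjusted p = 0.00181). The 7 fused S100 genes of the skin barrier, such as FLG and TCHH, were all below the filter.

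Place on chromosome 1 did not go with 1 direction. In the order of the annotation the tested genes run S100A10, S100A11, S100A6, S100A5, S100A4, S100A3, S100A2, S100A16 and S100A13, followed by the non-S100 genes CHTOP, SNAPIN, ILF2 and INTS3. S100A4 at log2 1.55 and 1.44 (1% and 20% O2, shCHD4 against shSC) stood next to S100A3 at -0.22 and 0.06, and S100A2 at 0.32 and 0.87 next to S100A16 at -0.47 and -0.20. After S100A13 came the mRNA export factor CHTOP, which overlaps it in RefSeq, at -0.73 and -0.70. The SNARE-associated SNAPIN was at 0.54 and 0.51, the RNA-binding ILF2 at 0.39 and 0.33 and the Integrator subunit INTS3 at -0.36 and -0.38. All 4 of these neighbours passed at both O2 levels, 2 higher and 2 lower under shCHD4, beside 77.4% and 75.6% of all genes at 1% and 20% O2, so the count says nothing particular of the region. All lie on the S100A1 side of the cluster, as no gene listed on the S100A9 side was tested. S100A10 and S100A11 lie apart from that cluster, with start windows from bases 151993810 and 152036955 against 153357604 for S100A9. Genes next to these 2 members were not looked at.

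**Figure D4:**
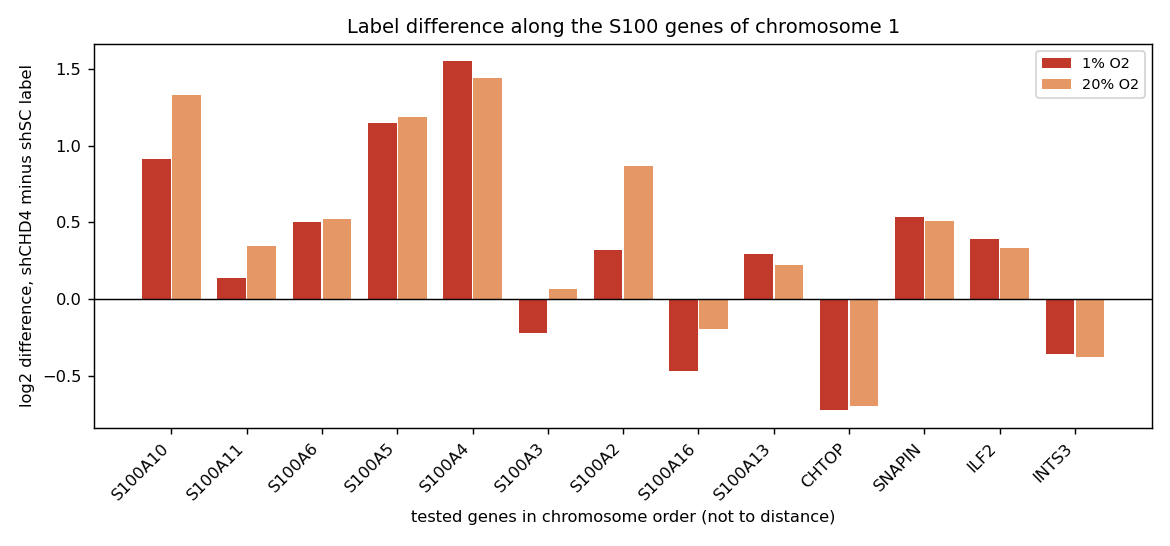
Log2 difference between the shCHD4 and shSC labels at 1% and 20% O2 for the tested S100 genes of chromosome 1 and 4 tested genes after S100A1. Genes are in their order along the chromosome (positions are ranks, not distances). S100A10, S100A5 and S100A4 are highest, S100A16 lies below 0 between S100A2 and S100A13, and CHTOP and INTS3 are below 0.

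The annexins, membrane-binding partners of S100A10, S100A11 and S100A6, did not move together between the labels. Of 8 tested annexins, 3 were higher and 4 lower under shCHD4 at 1% O2, and 3 higher and 3 lower at 20% O2, near the 77.4% and 75.6% of all genes that passed. ANXA2, which forms the tetramer with S100A10, averaged 1177 ± 34.8 and 1010 ± 34.3 in shCHD4 at 1% and 20% O2, against 1477 ± 6.24 and 1132 ± 34.9 in shSC (SD, n = 2 each). It thus fell under the shCHD4 label (log2 -0.33, limma adjusted p = 1.51e-06 at 1% O2, and -0.17, adjusted p = 0.00206 at 20% O2), where S100A10 rose. At 1% against 20% O2 ANXA2 rose under both labels, by 0.22 under shCHD4 (adjusted p = 0.0013) and 0.38 under shSC (adjusted p = 2.15e-06), as S100A10 did. ANXA3 also rose with low oxygen (0.25 and 0.41), ANXA5, the phosphatidylserine-binding annexin, rose under the shCHD4 label (0.26 at 1% and 0.35 at 20% O2), and ANXA11 fell under it (-0.41 and -0.21). For oxygen 3 annexins rose and 1 fell under shCHD4, and 4 rose under shSC, beside 23% and 35.2% of all genes called.

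Of 6 tested receptors for released S100 proteins, 2 were higher and 1 lower under the shCHD4 label at each O2 level. Over all genes, 77.4% passed at 1% O2 and 75.6% at 20% O2. So few genes give no result about the receptors as a set, and AGER, at 49 to 85 reads per group, was near the filter. ALCAM, described as a surface receptor of S100 proteins, averaged 704.6 ± 7.21 and 614.6 ± 15.8 in shCHD4 at 1% and 20% O2 and 355.0 ± 15.5 and 326.4 ± 19.8 in shSC (log2 0.99 and 0.91, limma adjusted p = 9.85e-13 and 3.29e-12). BSG, or basigin, which binds S100A9, averaged 761.9 ± 0.413 and 699.0 ± 4.52 in shCHD4 and 472.3 ± 16.9 and 440.3 ± 31.3 in shSC (log2 0.69 and 0.67, adjusted p = 1.75e-10 and 2.99e-10). TLR4, the receptor of S100A8 and S100A9 in innate immunity, was lower under shCHD4 (log2 -0.16 and -0.29, adjusted p = 0.00493 and 2e-05). For oxygen 2 receptors rose under shCHD4, ALCAM and the basigin relative NPTN, and 1 of the 6 rose under shSC, beside 23% and 35.2% of all genes called.

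Among 18 tested intracellular partners, 10 were higher and 6 lower under shCHD4 at 1% O2, and 8 higher and 5 lower at 20% O2, beside 77.4% and 75.6% of all genes called, so the counts are near the background. The co-chaperone SUGT1, a target of S100A6, rose by log2 1.00 at both O2 levels. Whether a difference of its whole chromosome region between the labels bears on this was not tested. PPFIBP1, or liprin beta 1, a partner of S100A4, was lower, with log2 differences of -1.35 at 1% O2 and -1.37 at 20% O2, and DLC1, a tumour suppressor that S100A10 binds, was at -0.995 and -1.22. The tropomyosin TPM2 was lower under shCHD4, by log2 differences of -0.65 at 1% O2 and -1.29 at 20% O2, and its response to oxygen differed between the labels (interaction 0.64, limma adjusted p = 0.01). At 1% against 20% O2, 5 of these partners were higher and 4 lower under each label, beside 23% of all genes called under shCHD4 and 35.2% under shSC.

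Of 7 tested regulators of S100 genes, 6 were lower under the shCHD4 label at each O2 level and none higher. Over all genes 77.4% passed at 1% O2 and 75.6% at 20% O2, with 39.2% and 38.6% lower, so the number called is near the background. The median log2 difference of the 7 was -1.71 at 1% O2 and -1.42 at 20% O2, a description only, as the list was chosen with earlier results known. That median counts TP63, at -2.03 and -2.53, and is less negative without it. As TP63 is a low gene, the pseudocount makes its 2 differences too small in size. CEBPB, a factor of the C/EBP family that drives S100A8 and S100A9 in myeloid cells, averaged 84.3 ± 1.08 and 81.0 ± 2.80 in shCHD4 at 1% and 20% O2 against 351.1 ± 4.46 and 332.7 ± 22.4 in shSC (log2 -2.05 and -2.03, limma adjusted p = 4.02e-17 and 4.6e-17). CEBPD was lower by log2 differences of -2.07 and -2.77, and NFKB1, which encodes a subunit of NF-kappaB, by -1.71 and -1.42. TP63, the epithelial p53 relative that drives S100A2 in keratinocytes, had 15 and 14 reads per group under shCHD4 at 1% and 20% O2 against 149 and 198 under shSC. TP63 reached the filter only through the shSC groups, where it is high, so its place among the 6 and in the median supports nothing. HIF1A differed by -0.94 at 1% O2 and -0.71 at 20% O2, and it has antisense transcripts that counting without strand would include. At 1% against 20% O2, 2 of the 7 fell under shCHD4, and 3, TP63 among them, fell and 1 rose under shSC. Over all genes 23% and 35.2% passed. HIF1A fell by log2 differences of -1.55 under shCHD4 and -1.32 under shSC. The interaction passed for CEBPD (0.71, limma adjusted p = 0.00786) and NFKB1 (-0.29, adjusted p = 0.0136), beside 4.36% of all genes. The part of these factors in the S100 values was not tested.

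The genes whose profile over the 8 libraries was most like that of the 3 members with the widest spread were ranked by Euclidean distance of centred log2 values, among tested genes with a mean of at least 10. For S100A4 these were TCTN2 (distance 0.184, Pearson r 0.997), TMCO3 (0.190) and TM9SF2 (0.228). For S100A10 they were SLCO1B3 (0.290, r 0.987), COL5A1 (0.431) and CRYL1 (0.432), and for S100A2 they were VIM (0.351, r 0.971), LRRC20 (0.351) and KLF13 (0.428). The annotation places TM9SF2 and CRYL1 on chromosome 13 and TCTN2 and SLCO1B3 on chromosome 12, and it gave no place for TMCO3. Whether differences of a whole region between the labels bear on these likenesses was not tested. VIM, the mesenchymal filament protein vimentin, averaged 6819 and 5509 in shCHD4 at 1% and 20% O2 and 5598 and 3497 in shSC, an order of groups in which shSC at 20% O2 was lowest, as it was for S100A2. The 8 points are 4 groups that share libraries and scaling, so such a likeness is a description only.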

How the data were processed

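Polyadenylated RNA of MDA-MB-231 cells was measured in 8 libraries, made with a KAPA mRNA kit from DNase-treated RNA, per the labels' protocols. Of upstream tools, the submitters' processing notes list TopHat, featureCounts and edgeR, with bcl2fastq 2.17, FastQC 0.11.2 and Picard 1.127, and the build hg19. No source used here gives the annotation or strand setting. Although the deposited file is called FPKM, the authors' values are a signal of reads scaled by a single factor per library. Divided by their smallest step, 100% came out as whole reads within 0.01. The test fixed for normalised values was kept, and count tests were run on the recovered reads.

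The fit used limma 3.58.1 (R 4.3.3) on log2(value + 0.5) for the 12645 of 19583 genes whose mean over the 8 libraries was at least 1. It held 4 group means and a variance trend, with 4 residual and 13.9 prior degrees of freedom, and gave 5 two-sided comparisons, each with Benjamini-Hochberg adjustment over all genes at 0.05. The pseudocount makes the fold changes of low genes too small. With 2 libraries against 2, exact permutation cannot go below p = 0.33 and was not used. Alternatives were pseudocounts, filters, quantile and TMM scaling, edgeR 4.0.16, DESeq2 1.42.0, no trend, only the groups compared, the replicate number as a block and leaving out each library. The fit was tested on simulated data.

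The members and lists were chosen with earlier results of these data known. All 10 members are named, with up to 4 genes of smallest p per list. Transcript lengths are from GENCODE and promoters from RefSeq, on a later build than the table, so they were matched by symbol.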

Additional observations from a re-analysis of the deposited data

Results flagged for a closer look

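S100A10 stood out because its response to oxygen differed between the labels by the interaction test (log2 -0.42, limma adjusted p = 0.000654). The 1% O2 libraries were above the 20% O2 libraries under both labels, by 0.37 under shCHD4 and 0.79 under shSC. In normalised counts the same differences were 123.0 and 122.1.

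S100A16 stood out in the same test (log2 -0.27, limma adjusted p = 0.0166). It differed by -0.0029 with oxygen under shCHD4 and by 0.27 under shSC.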

How the results depend on the processing

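Of 659 values of members under an alternative, 626 kept their direction and side of the threshold, 15 lost the call, 9 gained one and 9 changed sign. For 1% against 20% O2 under shCHD4, 2903 genes and 2 members passed, against 1920 genes with no filter, 1815 genes and 1 member with no variance trend, and 1343 to 3472 genes and 1 to 2 members with 1 library left out. For the interaction 551 genes and 2 members passed, against 155 genes and 1 member with no filter, and 254 to 990 genes and 1 to 3 members with 1 library left out. With no variance trend limma called 155 genes and 0 members for the interaction, although 5 members had an unadjusted p under 0.05, and edgeR called 2 members and DESeq2 3. The other counts stayed within 1.5 times. The values that changed sign were all near 0 and none passed. They were S100A16 for oxygen under shCHD4 (0.0013 with edgeR, and -0.031 to 0.026 with 1 library left out), S100A3 between labels at 20% O2 (-0.012 to 0.14 with 1 library left out) and the S100A6 interaction (0.034 with quantile normalization, and -0.072 to 0.028 with 1 library left out). The cause of these changes was not tested.

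Libraries of different groups share a replicate number. The differences between replicates 1 and 2 correlated at -0.121 to 0.124 between groups, which cannot show whether libraries with the same number were handled together. With the replicate number as a block, 2 members passed for oxygen under shCHD4, 5 under shSC, 6 between labels at each O2 level and 2 for the interaction, as without it, with 2795, 4370, 9755, 9536 and 536 genes. With the numbers of shCHD4 at 1% O2 crossed, an alternative added after seeing the data, 2 members and 2972 genes passed for oxygen under shCHD4. Depth limits S100A8, S100A9 and S100A14, which had 0 to 6 reads per library.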
